A study of Homo sapiens with 15 samples.

Results

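The keratin genes of the human genome lie in a type II cluster on chromosome 12 and a type I cluster on chromosome 17, and chromatin accessibility over both clusters was examined by ATAC-seq in HPAF-II cells, an established line of human pancreatic adenocarcinoma. Peaks from the 15 libraries that shared at least 1 bp were merged into 1 region. A region was taken as a keratin region when it lay inside, or within 50 kb of either end of, a protein-coding gene named KRT followed by a number; the keratin-associated protein genes did not count. This rule found 55 keratin genes, 27 on chromosome 12 and 28 on chromosome 17, and 276 of 222814 regions, 171 in the type II cluster and 105 in the type I cluster. The rule used position only and no measured value.

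The cells had received 1 µM Lgk974, an inhibitor of the acyltransferase porcupine that Wnt ligands need for their secretion, or DMSO as the control, for 24 or 48 h. There were 4 libraries each of DMSO at 24 h, Lgk974 at 24 h and DMSO at 48 h, and 3 of Lgk974 at 48 h. The study asked how chromatin structure changes when Wnt signalling is blocked. Nothing in the labels says whether the replicates came from separate cultures, so the p-values given here measure the spread between these libraries, which may be technical. All libraries come from 1 tumour line.

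Keratins form the intermediate filaments of epithelial cells. Each filament is built from heterodimers of a type I and a type II chain, so a cell that makes keratin filaments expresses chains of both types. KRT18, a type I chain, is the exception in position, since its gene lies beside KRT8 in the type II cluster. Simple epithelia such as the pancreatic duct use KRT8 and KRT18, with KRT7, KRT19 and in some cells KRT20, whereas basal cells of stratified epithelia use KRT5 and KRT14, differentiating epidermis uses KRT1 and KRT10, and hair and its follicle use a further set.

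RefSeq promoter entries (GRCh38.p14, the build of the peaks) matched 34 of the 55 keratin genes. The 250 bases before a start site of 6 of them are shown because they span the range of calling found in these cells. The KRT8 entry starts inside that gene as RefSeq draws it (chr12:52897191-52949860), so it need not be the main KRT8 promoter. Those of KRT8 (chr12:52926470-52926719) and KRT20 (chr17:40885243-40885492) lay wholly inside a region called in 15 of 15 libraries. That of KRT10 (chr17:40822615-40822864) overlapped by 87 bp a region called in 1 library. No region overlapped those of KRT5 (chr12:52520395-52520644), KRT24 (chr17:40703753-40704002) and KRT39 (chr17:40966949-40967198). All 6 are on the minus strand, written 5′ to 3′, and capitals mark the letters TATAAA.
KRT8: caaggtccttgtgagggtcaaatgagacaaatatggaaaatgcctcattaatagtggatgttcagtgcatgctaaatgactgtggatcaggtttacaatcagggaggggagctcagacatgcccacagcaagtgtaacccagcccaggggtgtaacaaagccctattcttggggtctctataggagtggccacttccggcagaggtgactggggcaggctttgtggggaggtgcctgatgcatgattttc
KRT20: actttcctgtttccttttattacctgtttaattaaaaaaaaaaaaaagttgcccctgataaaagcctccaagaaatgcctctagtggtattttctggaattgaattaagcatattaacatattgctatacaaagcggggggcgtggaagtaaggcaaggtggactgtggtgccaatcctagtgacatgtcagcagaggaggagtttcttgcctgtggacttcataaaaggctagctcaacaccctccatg
KRT10: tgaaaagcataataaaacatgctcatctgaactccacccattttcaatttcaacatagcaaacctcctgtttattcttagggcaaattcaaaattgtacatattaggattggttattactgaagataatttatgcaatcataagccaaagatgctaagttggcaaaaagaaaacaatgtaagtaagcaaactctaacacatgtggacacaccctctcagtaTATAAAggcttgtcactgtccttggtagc
KRT5: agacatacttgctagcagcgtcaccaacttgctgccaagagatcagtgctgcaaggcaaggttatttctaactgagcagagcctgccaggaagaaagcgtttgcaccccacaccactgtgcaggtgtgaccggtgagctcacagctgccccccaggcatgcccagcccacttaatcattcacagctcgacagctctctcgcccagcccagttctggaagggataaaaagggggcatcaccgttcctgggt
KRT24: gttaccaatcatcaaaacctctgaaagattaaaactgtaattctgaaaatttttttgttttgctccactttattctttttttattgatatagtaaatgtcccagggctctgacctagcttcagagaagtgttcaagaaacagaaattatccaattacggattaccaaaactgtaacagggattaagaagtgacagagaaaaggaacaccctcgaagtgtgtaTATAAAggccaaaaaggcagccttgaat
KRT39: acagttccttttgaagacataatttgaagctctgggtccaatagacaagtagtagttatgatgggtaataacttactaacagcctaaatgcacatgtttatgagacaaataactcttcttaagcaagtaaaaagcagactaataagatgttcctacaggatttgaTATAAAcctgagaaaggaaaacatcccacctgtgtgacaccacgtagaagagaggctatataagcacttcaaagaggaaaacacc
The letters TATAAA, searched on both strands, stood in 21 of 38 keratin promoter entries (55.3%) and in 10.7% of all 35116 promoter entries of the same length. The Sp1 box GGGCGG stood in 4 of the 38 (10.5%) against 42.6% of all. The AP-1 letters TGANTCA were found in 0 of the 38 against 6.57% of all, and the TCF/LEF letters CTTTGAT in 1 (2.63%) against 2.26%. The median GC content of the keratin entries was 45%, against 58% for all entries. KRT8 and KRT20 had entries, but KRT7, KRT18, KRT19, KRT23 and KRT80 had none. The shares therefore leave out most keratins of simple epithelia. KRT40 and KRT85 entered with more than 1 entry each. Of the 6 printed sequences, TATAAA was present in those of KRT10, KRT24 and KRT39 and absent from those of KRT8, KRT20 and KRT5. These matches describe the letters of the sequences and are not evidence of binding.

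The deposited data are peak lists called separately in each library, so each library either has a peak in a region, which is then called there, or has none; the read depth is unknown and no confidence interval can be given. The lists held 53610 to 127886 peaks. In 3 libraries, DMSO 24 h replicate 3, Lgk974 24 h replicate 3 and Lgk974 48 h replicate 3, the regions called overlapped least with those of the other libraries: the mean Jaccard index (shared regions over regions called in either library) was 0.376, 0.513 and 0.478 over all regions, against 0.583 to 0.656 in the other 12, and 0.577, 0.575 and 0.647 over the keratin regions, against 0.685 to 0.738. Among 10 markers of ductal epithelium, 9 had a peak within 1 kb of a gene end in 15 of 15 libraries. Of 10 mesenchymal and 10 immune markers, 3 of each were called in all 15 libraries and 3 of each in none. Those called in all were COL1A1, ACTA2 and ZEB1, and CD3E, CD14 and LYZ; those called in none included COL3A1, DCN and LUM, and MS4A1 and NKG7.

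Both keratin clusters were rich in regions called in all libraries. In the type II cluster 52 of 171 regions (30.4%) were called in 15 of 15 libraries, and in the type I cluster 29 of 105 (27.6%), compared with 15.9% of all 222814 regions and 17.97% of the 171587 regions inside or within 50 kb of any protein-coding gene. Regions called in a single library were fewer than elsewhere, 39 (22.8%) and 25 (23.8%), compared with 39.5% of all regions. The type II cluster held 193 regions per Mb over 0.884 Mb and the type I cluster 129 per Mb over 0.811 Mb, in 2 pieces on either side of the keratin-associated protein genes. The corresponding density around all protein-coding genes was 92.1 per Mb. These shares describe cells of 1 line and were not tested.

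The number of keratin regions called varied between libraries of the same group. In the type II cluster, 103, 98, 121 and 85 regions were called in DMSO at 24 h, 109, 99, 60 and 103 in Lgk974 at 24 h, 89, 106, 93 and 100 in DMSO at 48 h, and 99, 123 and 73 in Lgk974 at 48 h. In the type I cluster the counts were 65, 71, 62 and 48, then 62, 63, 38 and 66, then 58, 66, 52 and 58, and then 71, 73 and 43. The 4 groups overlapped in both clusters, and the lowest count of each cluster belonged to Lgk974 24 h replicate 3, which also had the shortest list.

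**Figure D1:**
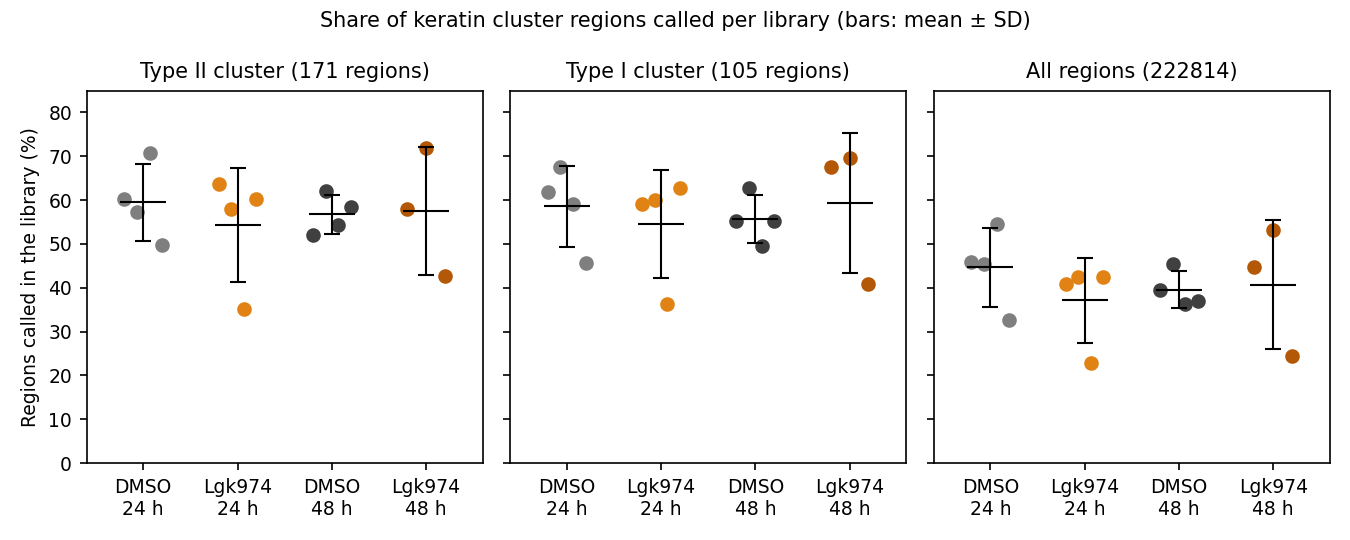
Percentage of the 171 type II keratin regions, the 105 type I keratin regions and all 222814 regions called in each library (points) of the 4 groups, with group mean and SD (bars). The groups overlap in each panel, and the keratin shares stand above those of all regions.

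To set these counts beside list length, the share of keratin regions called in a library was compared with the share called in that library among all regions of the genome called in as many libraries. In the type I cluster this excess was -1.07 ± 2.29 percentage points in DMSO (SD, n = 8) and 1.22 ± 2.33 in Lgk974 (SD, n = 7). In the type II cluster it was -0.33 ± 4.87 and 0.38 ± 3.72. The mean difference within times, Lgk974 minus DMSO, was 2.47 percentage points for type I and 0.753 for type II. When every list was shortened to its 53583 strongest peaks the values were -1.87 for type I and -3.43 for type II, so both turned sign; the cause was not tested.

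Constitutive regions, those called in 15 of 15 libraries, were unevenly spread along the clusters. They gathered around the keratins listed under simple epithelia, a list that also holds KRT80 of many epithelia. Of the 86 regions whose nearest keratin gene was KRT7, KRT8, KRT18, KRT19, KRT20, KRT23 or KRT80, 42 were constitutive (48.8%). The share was 14 of 39 (35.9%) at type I keratins of stratified epithelia and 13 of 56 (23.2%) at type II keratins of stratified epithelia. It was lowest at the hair keratins, 6 of 51 (11.8%) in the type II cluster and 4 of 38 (10.5%) in the type I cluster. Of the 6 regions nearest to KRT222, a type I-like gene, 2 were constitutive.

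**Figure D2:**
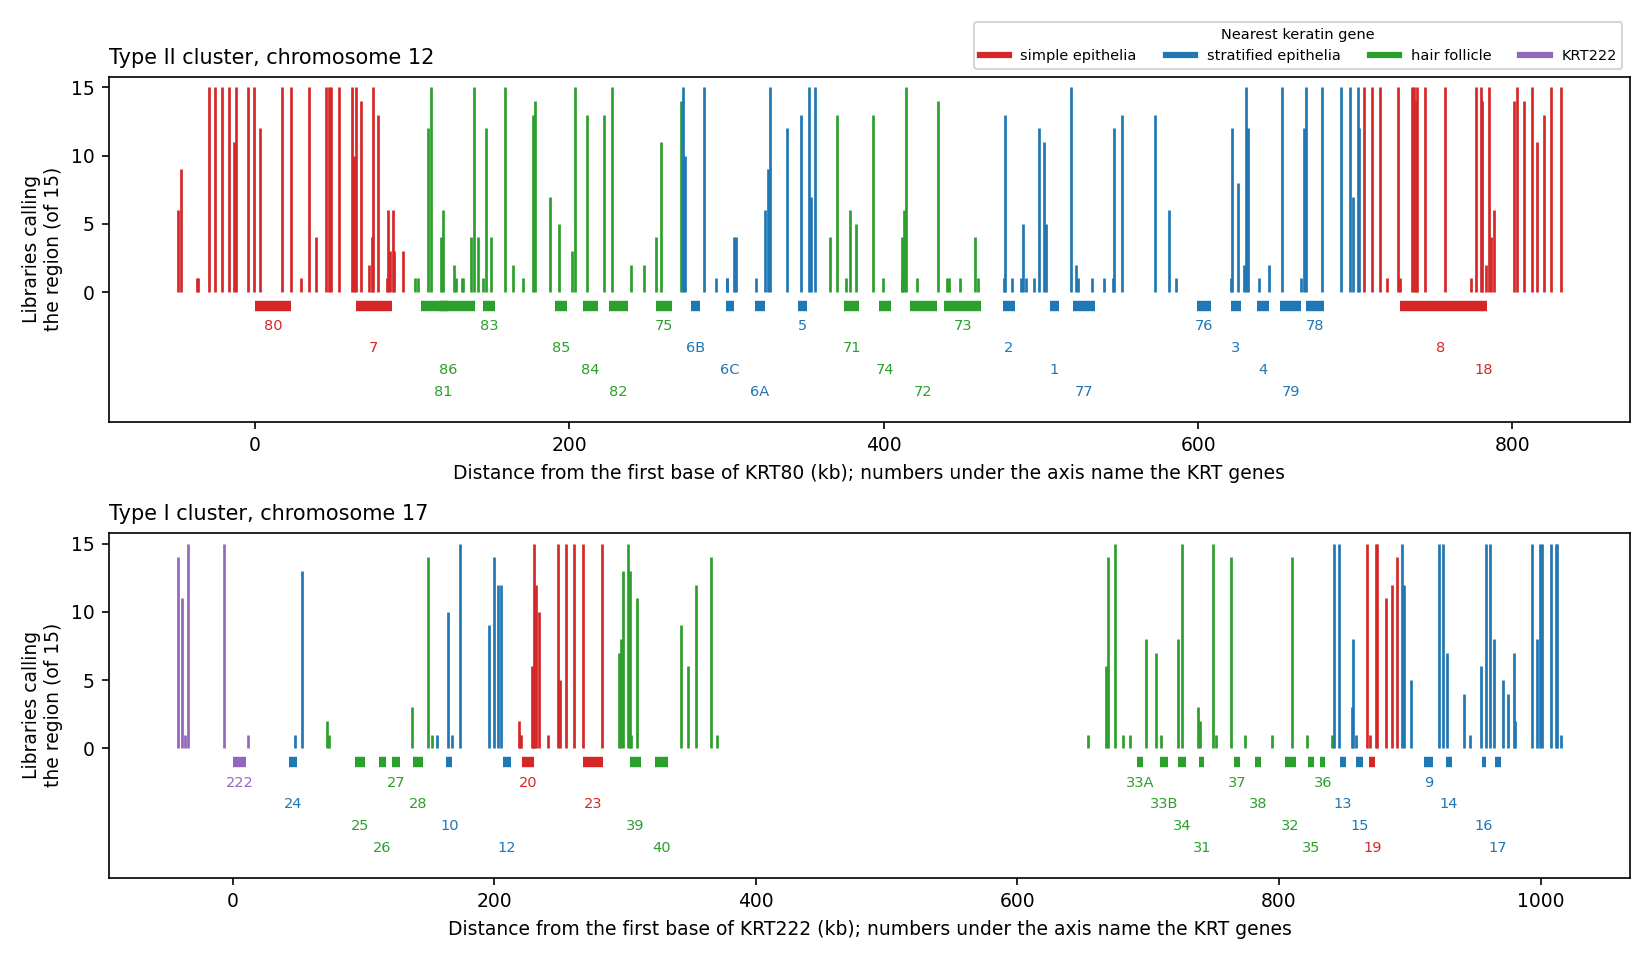
Number of libraries (of 15) calling each keratin region, plotted by distance in kb from the first base of the first keratin gene of the cluster; colour gives the role of the nearest keratin gene and the thick bars under 0 are the genes. Lines reaching 15 crowd at both ends of the type II cluster, around KRT80 and KRT7 and around KRT8 and KRT18, and thin out over the KRT71 to KRT3 stretch and over KRT24 to KRT28.

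At the start of the type II cluster, KRT80, a keratin of many epithelia, had 10 constitutive regions among its 18. There KRT7, a type II keratin of ducts, had 7 of 18. At the far end of the cluster, KRT8 had 11 of 16 and its filament partner KRT18 5 of 12. The widest constitutive region of the type II cluster, chr12:52924862-52927822 (2961 bp), lay inside KRT8 as RefSeq draws the gene and held the printed KRT8 sequence. The authors' fold enrichment of its strongest peak was 3.89 at the lowest, 4.23 at the median and 6.30 at the highest over the 15 libraries. Between these ends ran long stretches with no constitutive region. A stretch of 110.4 kb held KRT77, KRT76 and KRT3. Another of 104.1 kb held KRT72, KRT73, KRT2 and KRT1, the last being a type II keratin of differentiating epidermis. The longest stretch of the cluster with no region in any library measured 34.5 kb and contained KRT76.

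In the type I cluster, KRT23, a keratin of gastrointestinal epithelia, had 4 constitutive regions among 5, and KRT20 had 2 of 10. KRT19, a type I keratin of ducts, had 3 of 7. KRT17, a keratin of basal and activated keratinocytes, had 6 of 13. The widest constitutive region, chr17:40901844-40904208 (2365 bp), lay 16602 bp from KRT20 and outside any protein-coding gene, with fold enrichments of 5.004 at the lowest, 5.75 at the median and 8.59 at the highest. The longest stretch without a constitutive region was 178.7 kb and held KRT222, KRT24, KRT25, KRT26, KRT27, KRT28 and KRT10. Within it, 63.6 kb over the hair follicle keratins KRT25, KRT26 and KRT27 contained no region at all. The next longest was 91.9 kb over the hair keratins KRT37, KRT38, KRT32, KRT35 and KRT36.

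Peaks differ in strength within a list, and this was described by rank: the percentage of peaks of the same list with a smaller −log10 p, taken for the strongest peak of a region. The median rank of constitutive keratin regions was 80.0 in the type I cluster and 71.4 in the type II cluster, compared with 24.1 for the 87 regions called in 3 to 12 libraries and 18.02 for those called in 1. The strongest was a region 6528 bp from KRT23 (chr17:40915078-40916172), with a median rank of 98.6 and fold enrichments of 8.29 at the lowest and 12.7 at the highest. It was followed by a region 10882 bp from KRT80 (chr12:52202896-52204024; median rank 98.4). Of the 5 strongest, the others lay inside KRT86 (97.24), 5163 bp from KRT10 (97.21) and 5811 bp from KRT83 (97.18). A strong constitutive peak therefore stood near KRT10 and KRT83, whose own ends were called in 10 and 1 of the libraries.

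The gene table gives no strand, and promoter entries, which give one, matched 34 of the 55 keratins. Calling at the genes themselves was therefore taken as a peak within 1 kb of either end. A called end can thus lie away from the start site. The 250 bases before the start site of the KRT79 entry overlapped only a region called in 1 library. No region lay in chr17:40964303-40996776, which holds the KRT39 start site. All 7 keratins listed under simple epithelia, with KRT80 of many epithelia among them, had a called end in 15 of 15 libraries, under both treatments and at both times. Of the 12 type II keratins of stratified epithelia, 3 had one in all libraries, KRT5, KRT78 and KRT79. Of the 9 type I keratins of stratified epithelia, 2 did, KRT13 of mucosal epithelium and KRT16, a keratin of activated keratinocytes. The hair keratins had 1 of 11 in the type II cluster, KRT86, and 0 of 15 in the type I cluster, where the nearest was KRT39 with 13 libraries. In all, 13 of 55 keratins (23.6%) were called in 15 libraries and 22 (40%) in none, compared with 54.3% and 18.6% of 19970 protein-coding genes.

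**Figure D3:**
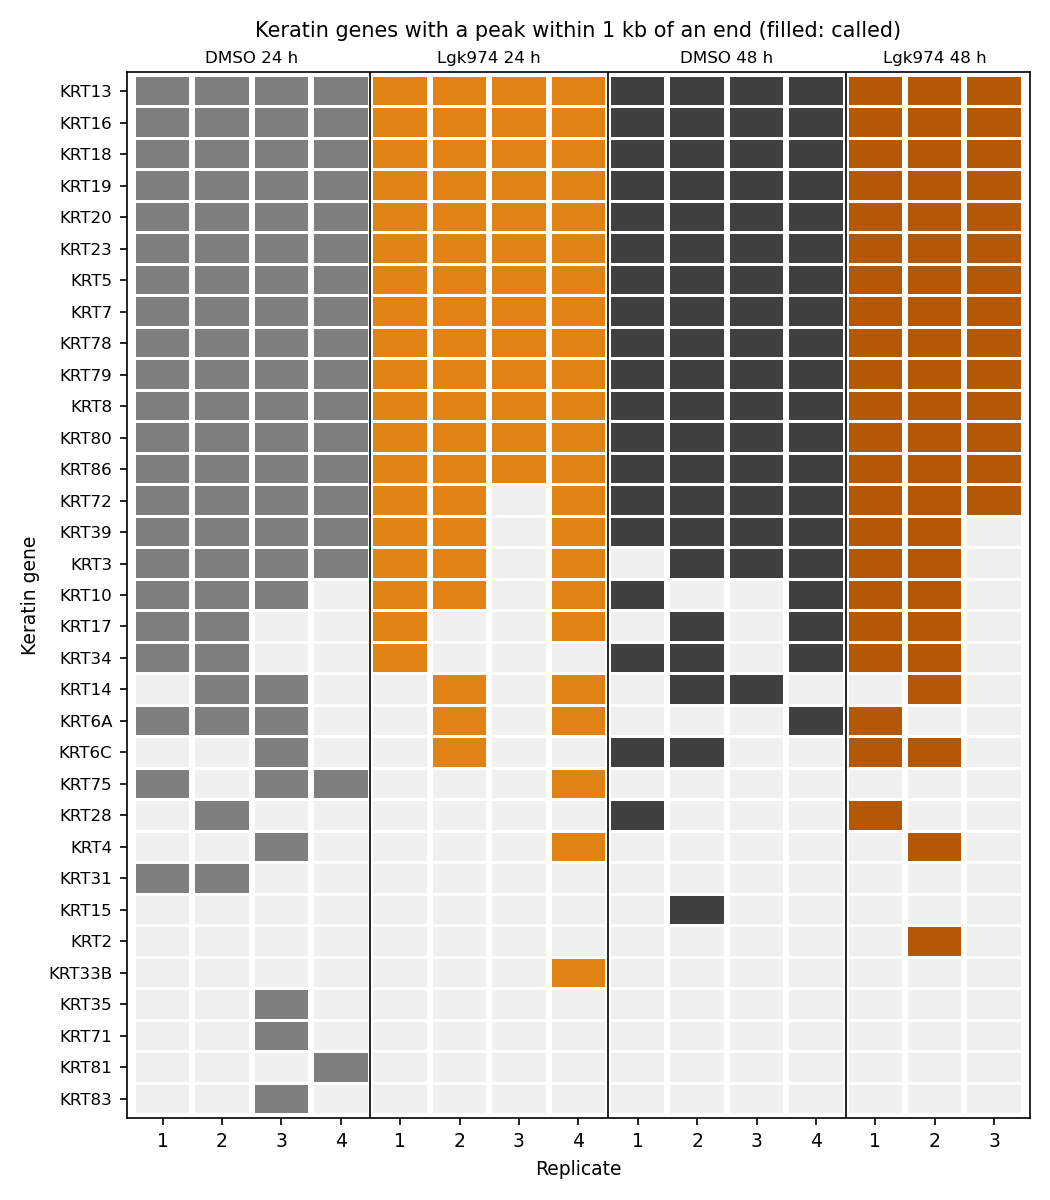
Keratin genes that had a peak no more than 1 kb from an end in at least 1 library (rows) and the 15 libraries by group and replicate (columns); a filled square is a called end. The 13 genes at the top are filled in every column, and Lgk974 24 h replicate 3 is empty for every gene below them.

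Among the genes called in every library, rank at the gene end was highest for KRT86 (median 93.3), a hair keratin, and KRT23 (91.9). The KRT86 peak lay at the gene end at chr12:52309163. No promoter entry matched KRT86, so this end need not be its start site. RefSeq draws KRT86 over the whole of KRT81. KRT80 had 87.6, KRT19 83.4, KRT13 82.3, KRT16 82.2, KRT7 73.7 and KRT5 73.5. KRT8 (66.1) and KRT18 (61.9) ranked lower than KRT19, as did KRT78 (63.9), KRT20 (61.0) and KRT79 (58.1). RefSeq draws an end of KRT8 inside KRT18, so the values of these genes share peaks and were identical in 4 libraries. The region that held the printed KRT8 sequence ranked higher, from 90.9 to 98.5 with a median of 93.7. The ranges over libraries overlapped between all neighbours in this order; for KRT19 they ran from 77.3 to 97.3 and for KRT18 from 53.3 to 87.2. KRT5, a keratin of basal cells, ranged from 29.4 in DMSO 24 h replicate 3 to 81.5. Ranks come from lists of different length and are not compared between groups.

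**Figure D4:**
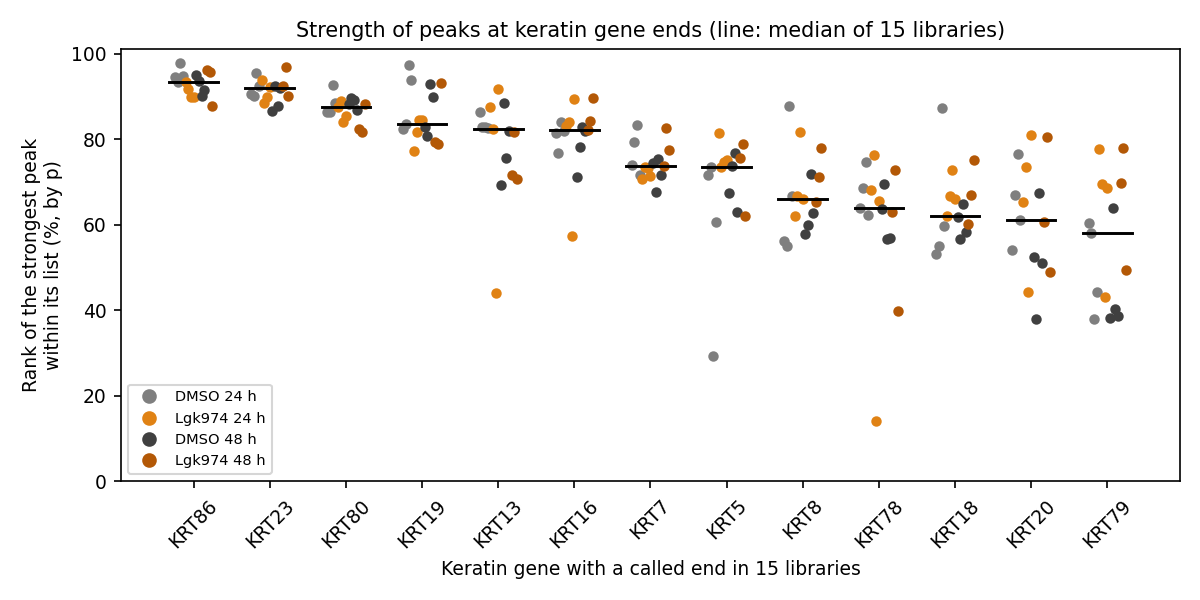
Rank (percentage of peaks in the same list with a smaller −log10 p) of the strongest peak no more than 1 kb from an end of the 13 keratin genes called in 15 libraries; each point is a library, coloured by group, and the line is the median. KRT86 and KRT23 lie above 86 in every library, whereas KRT20 and KRT79 spread from 38.0 to 80.9.

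Lgk974 was compared with DMSO at gene ends by a two-sided exact permutation test that reassigned treatment within each time. Of 10 keratins with a called end in 3 to 12 libraries, 0 had an unadjusted p under 0.05 in either direction; the background was 1.46% of 2129 genes higher and 2.77% lower with Lgk974, and 0 genes passed after Benjamini-Hochberg adjustment. Among the 10, the numbers of DMSO and Lgk974 libraries differed by at most 2: KRT10 was called in 5 DMSO and 5 Lgk974 libraries, KRT17 in 4 and 4, KRT14, the partner of KRT5, in 4 and 3, KRT6A, a keratin of activated keratinocytes, in 4 and 3, and KRT4, a mucosal keratin, in 1 and 2. KRT3, a keratin of the cornea, was called in 7 and 5. KRT39, called in too many libraries for the test, was called in 8 and 5; it lacked a call in Lgk974 24 h replicate 3 and 48 h replicate 3, the libraries with the shortest lists, both of which stand apart. KRT15 and KRT81 were called in 1 DMSO library each, and KRT6B, KRT1 and KRT222 in none. With 8 and 7 libraries a gene must differ in most of them to reach a small p, so these values do not show that the ends were equal.

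The keratin regions were then compared between treatments over both times with the same exact permutation test (smallest possible p 0.000408), fitted on all 60356 regions called in 3 to 12 libraries. Of the 87 keratin regions tested, 52 in the type II and 35 in the type I cluster, 3 were called more often with Lgk974 and 4 less often at an unadjusted p under 0.05. The background was 2.96% of all regions higher and 3.08% lower, so the keratin counts were close to what all regions showed. After Benjamini-Hochberg adjustment 0 keratin regions and 0 regions in all passed (0% called), and the smallest adjusted p was 0.418. The 7 regions are described below as single cases.

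The clearest separation was at chr17:40951107-40951620, between KRT23 and the hair keratin gene KRT39 and 6797 bp from the latter. It was called in 4 of 4 DMSO libraries at 24 h, 0 of 4 with Lgk974 at 24 h, 4 of 4 DMSO libraries at 48 h and 0 of 3 with Lgk974 at 48 h. The fold enrichments in the DMSO libraries were 5.36, 4.28, 5.53 and 5.22 at 24 h and 5.11, 4.30, 5.39 and 5.68 at 48 h, and the rank ran from 32.9 to 65.7. The treatments did not overlap at either time, with an unadjusted exact permutation p of 0.000408, the smallest the design allows, and an adjusted p of 0.418. Without the 3 libraries that stand apart, 7 DMSO and 0 Lgk974 libraries had it (exact permutation p = 0.00333). Among lists of equal length it was called in 4 DMSO and 0 Lgk974 libraries, and the p was 0.0714. With the replicate number as a block the exact permutation p was 0.0156.

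A region inside KRT20, chr17:40883122-40883569, was called in DMSO 24 h replicates 2 and 4 and in all 4 DMSO libraries at 48 h, and in 0 of 7 Lgk974 libraries (unadjusted exact permutation p = 0.00612; adjusted p = 0.543). Its fold enrichments were 3.42 and 3.78 at 24 h and 3.63, 4.18, 4.17 and 2.98 at 48 h. Treatments separated completely at 48 h and overlapped at 24 h. KRT20, an intestinal and gastric keratin, kept a called gene end in all 15 libraries, and the printed KRT20 sequence lies in another region. In the type II cluster, chr12:52657223-52657679, 5012 bp from the epidermal keratin gene KRT2, was called in DMSO 24 h replicate 1 and in all 4 DMSO libraries at 48 h, and in 0 Lgk974 libraries (p = 0.0143 by the same exact test; adjusted p = 0.654). Its p was between 0.0122 and 0.05 when single libraries were left out, and reached 0.05 without any one of the 4 DMSO 48 h replicates.

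The fourth region called less often with Lgk974, chr17:40996777-40997305, lay 9642 bp from KRT40 and 1888 bp from KRTAP3-2, a gene of hair shaft proteins. It was called in 7 of 8 DMSO libraries, all but 24 h replicate 3, and in Lgk974 48 h replicates 1 and 2. Its fold enrichments were 8.45, 5.51 and 4.88 in DMSO at 24 h, 8.29, 10.8, 5.49 and 6.04 in DMSO at 48 h, and 5.92 and 5.86 in Lgk974 at 48 h. The peak was absent from all 4 Lgk974 libraries at 24 h and from 1 DMSO library, so the treatments overlapped at both times. The unadjusted exact permutation p was 0.0306 and the adjusted p 0.666. It was the only one of the 7 with a smaller p among lists of equal length, where 6 DMSO and 0 Lgk974 libraries had it (exact permutation p = 0.00612).

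Of the 3 regions called more often with Lgk974, that at chr17:40904639-40904964, 17736 bp from KRT23, had no peak in the 8 DMSO libraries and one in 5 of the 7 with Lgk974, all but replicate 3 at either time (unadjusted exact permutation p = 0.0102; adjusted p = 0.543). It was a weak peak, with fold enrichments of 2.15, 2.14 and 2.92 at 24 h and 2.36 and 2.93 at 48 h, and it lies close to the widest constitutive type I region. The region at chr17:41629844-41630286, 5269 bp from KRT17, was called in 0 DMSO libraries and in Lgk974 24 h replicates 2 and 4 and 48 h replicates 1 and 2 (p = 0.0306 by the same exact test; adjusted p = 0.666). Its fold enrichments were 2.85 and 2.65 at 24 h and 4.55 and 4.40 at 48 h. The region at chr12:52547414-52547750, inside KRT71, a keratin of the inner root sheath of hair, was called in all 4 Lgk974 libraries at 24 h, in Lgk974 48 h replicate 2 and in DMSO 48 h replicate 2 (p = 0.0469 by the same exact test; adjusted p = 0.772). Its fold enrichments lay between 2.57 and 3.76. The treatments separated at 24 h and overlapped at 48 h.

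**Figure D5:**
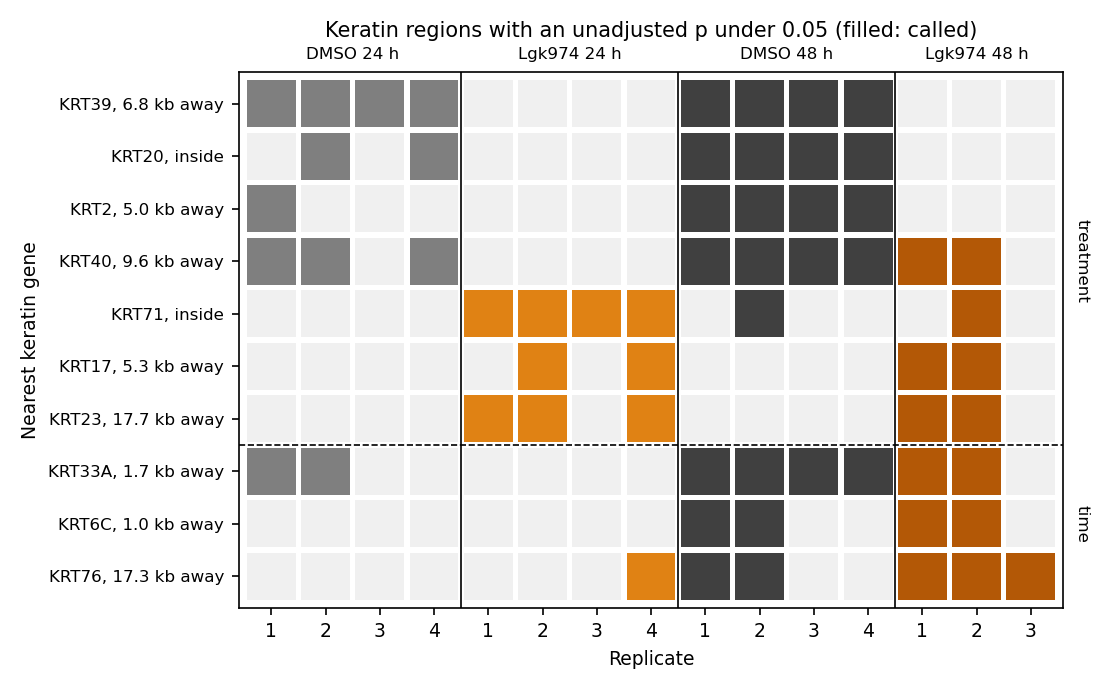
Calls (filled squares) in the 15 libraries of the 7 keratin regions with an unadjusted p under 0.05 for treatment and, under the dashed line, the 3 for time; rows are named by the nearest keratin gene and its distance. The row near KRT39 is filled in all 8 DMSO columns and empty in the 7 of Lgk974, whereas the other rows are filled in part.

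The peaks of the 7 regions ranked in the lower and middle parts of their lists, with median ranks from 17.8 near KRT17 to 58.0 near KRT40. Among lists of equal length 6 of the 7 no longer passed, all but that near KRT40, and the cause was not tested; there 2 of 47 keratin regions were higher with Lgk974 (background 7.62%) and 6 lower (background 6.83%) at an unadjusted p under 0.05. Without the 3 libraries that stand apart, 4 of 62 keratin regions tested were higher and 3 lower, beside 6.50% and 1.49% of all regions. The regions inside KRT71 and near KRT40 no longer passed (exact permutation p = 0.08 and 0.10), and the other 5 did. When each library was left out in turn, the regions near KRT39 and KRT23 and inside KRT20 passed each time, with exact permutation p-values of 0.000816 to 0.00143, 0.00408 to 0.0286 and 0.00408 to 0.0214. The regions inside KRT71 and near KRT17 and KRT40 each failed without any one of 12 libraries. Those whose removal kept the call were DMSO 48 h replicate 2 and Lgk974 48 h replicates 1 and 3 for KRT71, Lgk974 24 h replicates 1 and 3 and 48 h replicate 3 for KRT17, and DMSO 24 h replicate 3 and Lgk974 48 h replicates 1 and 2 for KRT40. Of the 7 regions, 4 lay in the stretch of chromosome 17 from KRT20 to just beyond KRT40; this stretch was picked out after the values were seen, and no test was made of it.

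The regions tested near hair and stratified type I keratins leaned in different directions. Near type I keratins of stratified epithelia, 13 of 16 were called at a higher rate with Lgk974, with a median difference of 16.7 percentage points in the share of libraries. Near type I hair keratins 9 of 12 were called at a lower rate, with a median of -18.8 percentage points. Near type II keratins of stratified epithelia and of the hair follicle, 11 of 19 and 11 of 18 were higher. Of the 21 tested near keratins of simple epithelia, 8 were higher and 11 lower, with a median of -4.17 percentage points. Over all 60356 regions the median was -4.17 percentage points, with 45.3% higher and 53.8% lower. Neighbouring regions share the same libraries, and the differences between these sets were not tested.

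Within each time only complete separation of the treatments reaches a small p, 0.0286 at 24 h (70 assignments) and 0.0286 at 48 h (35 assignments), by the exact permutation test. At 24 h, 1 of 74 keratin regions was called in all Lgk974 and 0 DMSO libraries, that inside KRT71 (background 0.127% of 55887 regions), and 1 in all DMSO and 0 Lgk974 libraries, that near KRT39 (background 0.347%). At 48 h, 0 of 65 separated with Lgk974 higher (background 0.811% of 48833 regions) and 3 with Lgk974 lower, those near KRT39 and KRT2 and inside KRT20 (background 1.33%). Without Lgk974 48 h replicate 3, which stands apart, the former count was 8 in place of 0, beside 13.8% of all regions that could separate; with 4 against 2 libraries the smallest exact permutation p is 0.0667. With the replicate number as a block the smallest p at 24 h is 0.125, so no 24 h call could be made with that pairing. Whether the effect of Lgk974 differed between 24 and 48 h was not tested.

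For time, the exact permutation test within each treatment found 3 of the 87 keratin regions called more often at 48 h than at 24 h (background 1.25%) and 0 less often (background 0.504%), at an unadjusted p under 0.05; after adjustment 0 passed (0% called) and the smallest adjusted p was 1. One lay 975 bp from KRT6C, a keratin of stratified epithelium, at chr12:52474780-52475287, and was called in 0 of 8 libraries at 24 h and in replicates 1 and 2 of both treatments at 48 h. Another lay 17251 bp from KRT76 (chr12:52750558-52750904), with 1 library at 24 h, Lgk974 replicate 4, and 5 at 48 h. The last lay 1698 bp from the hair keratin gene KRT33A (chr17:41352526-41353366), with 2 DMSO libraries at 24 h, 4 DMSO libraries at 48 h and 2 Lgk974 libraries at 48 h. Each had an unadjusted exact permutation p of 0.0306. With the replicate number as a block the count higher at 48 h was 0. It was also 0 without Lgk974 24 h replicates 1, 2 or 3 or replicate 1 or 2 of either treatment at 48 h, and 1 without DMSO 24 h replicates 3 or 4 or Lgk974 24 h replicate 4.

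Genes that work with keratin filaments were examined by lists of their symbols, as regions inside or within 50 kb of the genes. Near the 13 desmosome genes, whose products anchor keratin filaments to the cell membrane, 1 of 58 regions tested was called more often with Lgk974 and 4 less often at an unadjusted exact permutation p under 0.05. The higher one lay 20305 bp from JUP, the plakoglobin gene (chr17:41807016-41807424), just beyond the type I cluster, and had a peak in 1 library of DMSO and 6 of Lgk974 (exact permutation p = 0.00857). The lower ones were a pair inside PKP2 (5 against 0 and 7 against 1 libraries), 1 inside PKP3 (5 against 0) and 1 near DSC2 (5 against 0). Gene ends of PKP1 and DSG3 were each called in 8 DMSO and 5 Lgk974 libraries, too many to enter the test, and lacked a call in the same pair of libraries as KRT39.

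Near the 9 hemidesmosome and plakin genes 1 of 81 regions was higher and 1 lower, both inside DST, which links filaments to hemidesmosomes. Near the 13 other intermediate filament genes 0 of 73 passed in either direction; the ends of VIM and SYNM were each called in 8 DMSO and 5 Lgk974 libraries and lacked a call in the same pair as KRT39. Near 15 transcription factors of epithelial differentiation 3 of 94 were higher, a pair near TP63 and 1 near OVOL1, and 1 was lower, inside GRHL2; the end of KLF5 had a peak in 4 libraries of DMSO and 0 of Lgk974 (exact permutation p = 0.0714). Near 15 cornified envelope genes 0 of 47 were higher and 1 lower, at FLG, the filaggrin gene, called in 5 and 1 libraries. Near the ductal markers 1 of 44 was higher and 1 lower, both near CLDN7, near the mesenchymal markers 0 of 32 and 1, near ACTA2, and near the immune markers 2 of 29 and 2. Beside the background of 2.96% and 3.08%, the shares were larger near the desmosome genes for lower regions (6.90%) and near the immune markers in both directions (6.90% each), on few regions, and 0 regions of any list passed after adjustment.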

How the data were processed

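ATAC-seq libraries of HPAF-II cells (the labels' growth protocol also describes KATO III cells) were deposited as peak lists, 1 per library. Per the submitters' processing notes, MACS2, DiffBind, DESeq2, Trimmomatic, ChIPseeker, Bowtie2, HOMER, Picard, bedtools and SAMtools were used with hg38; their roles, versions and settings, any shift of reads for the transposase among them, were not given in the sources used here. The authors' lists give each peak a fold enrichment (a ratio) and −log10 p and q values, all deposited by the authors. The deposited summit offset, another number without a fixed unit, served only in 1 alternative. These values were used only to describe and rank peaks within a list and in alternatives. No counts were used here, so depth is unknown.

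Peaks on chromosomes 1 to 22 and X were merged where they shared 1 bp; 1138 peaks on other contigs were left out, and 1 damaged line in the list of DMSO 48 h replicate 4 was read as chromosome 1. Gene positions came from RefSeq, GRCh38.p14. Calls were compared by two-sided exact permutation tests over libraries within time (or treatment), on all regions called in 3 to 12 libraries, with Benjamini-Hochberg adjustment over all of them; the code was tested on simulated data. A set list of keratins was always named, with keratin regions under an unadjusted p of 0.05, those completely separated, the widest constitutive region of each cluster, and up to 3 genes per other list with the largest difference; genes of the 5 strongest regions and those of partly called ends were added after their values were seen. The keratin genes and the 14 lists were chosen with earlier results of these data known. Python 3.11.15 was used with pandas 2.3.3, Matplotlib 3.10.9, NumPy 2.4.6 and SciPy 1.17.1.

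Replicate numbers are shared between groups. Same-numbered DMSO and Lgk974 libraries at 24 h had correlations of their deviations of 0.102 to 0.142, all above 0.1, and those at 48 h 0.146, -0.0321 and 0.084; between 24 and 48 h they were 0.124 to 0.197 in DMSO and 0.113, -0.0254 and 0.26 in Lgk974. At 24 h, DMSO and Lgk974 libraries of replicates 2 and 4 correlated more with their own number than with any other, and replicates 1 and 3 did not. At 48 h this held for replicates 1 and 3 and not for replicate 2. Between times it held for DMSO replicates 1, 3 and 4 and Lgk974 replicates 1 and 3. It did not hold for replicate 2 of either treatment. Over both times the numbers were nevertheless taken not to pair the libraries, and the main tests ignore them. The 3 libraries that stand apart all carry the number 3. Whether libraries of the same number were handled together is not given and was not tested. The alternatives tried were lists of equal length, −log10 q of at least 5, summits extended by 100 bp, a cover of at least 50% of the region, other distances and filters, leaving out libraries, and the replicate block.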

Additional observations from a re-analysis of the deposited data

Results flagged for a closer look

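In the type I cluster, Lgk974 24 h replicate 3 had 38 regions called, far from the 62, 63 and 66 of the other Lgk974 libraries at 24 h. Its gap to the nearest of them, divided by the range of the group, was above Dixon's 95% critical value for 4 samples. Such a test was made on 15 groups of values and chance passes about 1 in 20 of them. The same library had the shortest peak list, and the part of list length in the count was not tested.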

How the results depend on the processing

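0 keratin regions passed adjustment in the full data or under any alternative tried. Counts at an unadjusted p under 0.05 were small and moved easily. In some alternatives fewer libraries or members entered, and the cause of the shifts was not tested. With equal numbers of peaks the complete separations at 24 h with Lgk974 lower were 0, beside 0.54% of all regions that could separate. The excess was -1.87 percentage points for type I and -3.43 for type II. Of the 3 keratin gene ends tested, 1 was lower. No share of all genes is given for that setting, so this count cannot be read as particular to keratins. With −log10 q of at least 5, regions higher at 48 h were 1 and lower 1. The 24 h separations were 0 higher and 2 lower (0.143% and 0.338% of all regions), and the 48 h separations 1 higher (0.767%). With a cover of 50%, 8 of 102 regions were lower (2.98% of all regions) and 4 higher (2.97%) with Lgk974 over both times. At 48 h 1 was higher than at 24 h. Without the 3 libraries that stand apart, 24 h separations were 3 higher and 2 lower, and 48 h separations 8 higher (13.8% of all regions). The shares of all regions that separated at 24 h also rose in both directions, so these 24 h counts cannot be read as particular to keratins. With the libraries left at each time, complete separation cannot reach an exact permutation p under 0.05. Of 56 regions within 5 kb of a keratin gene, 1 was higher and 1 lower, beside 2.96% and 3.08% of all regions.

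With the replicate number as a block, 0 of 87 regions were higher and 1 lower with Lgk974, beside 0.232% and 0.33% of all regions. The lower one lay near KRT39 (exact permutation p = 0.0156, the smallest that 7 pairs allow). The count higher at 48 h than at 24 h was 0. For treatment at 48 h the pairing cannot reach a smaller exact permutation p than 0.25.

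When single libraries were left out, 75 to 87 keratin regions were tested. The count higher over both times was 1 to 4 and lower 2 to 5. The shares of all regions moved too, from 1.00% to 3.99% higher and from 1.19% to 2.83% lower. The count higher at 48 h was 0 to 4 and lower 0 to 1. The 24 h separations were 1 to 2 higher and 1 to 2 lower. Of all regions that could separate, 0.127% to 1.79% and 0.347% to 1.63% did so. The 48 h separations were 0 to 8 higher and 3 to 4 lower, beside 0.811% to 13.8% and 1.33% to 3.77%. The excess was 2.01 to 3.23 for type I and -0.25 to 2.31 for type II. Gene ends stayed at 0 in both directions. The count higher over both times was 1 without any DMSO 24 h replicate, Lgk974 24 h replicates 2 or 4, DMSO 48 h replicates 1, 3 or 4, or Lgk974 48 h replicate 2. The count lower was 2 without any DMSO 48 h replicate. Without DMSO 24 h replicate 2 or Lgk974 48 h replicate 2, 1 region was lower at 48 h. The 24 h separations became 2 higher without DMSO 24 h replicate 2 or Lgk974 24 h replicate 3, and 2 lower without DMSO 24 h replicate 3 or Lgk974 24 h replicate 1. The 48 h separations became 1 higher without DMSO 48 h replicate 4 and 8 without Lgk974 48 h replicate 3.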

Other observations

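When each list was shortened to its 53583 peaks of highest −log10 p, 47 keratin regions were called in 3 to 12 libraries. Of these, 2 were called more often with Lgk974 and 6 less often at an unadjusted exact permutation p under 0.05, beside 7.62% and 6.83% of all 26353 regions; 0 passed after adjustment. These regions were picked out after their values were seen. A region 3975 bp from KRT24, a type I keratin (chr17:40707727-40708252), was called in 0 DMSO and 6 Lgk974 libraries in the shortened lists and in 6 and 7 in the full lists. The opposite was seen 273 bp from KRT72, a hair follicle keratin (chr12:52603226-52603755), with 8 DMSO and 1 Lgk974 libraries in the shortened lists and 8 and 6 in the full lists. A region 21549 bp from KRT40 (chr17:41008684-41009827) was called in 7 DMSO and 0 Lgk974 libraries in the shortened lists and in 8 and 4 in the full lists. Each of the 3 had an unadjusted exact permutation p of 0.00204 and an adjusted p of 0.0839. None of these 3 regions separated the treatments in the full lists.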
